A study of Mus musculus with 14 samples.

Results

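Uchl1, 4 stathmins and 5 further genes best known from neurons were followed across 4 lines made from MIN6, an insulin-secreting cell line of mouse beta-cell origin. Members were all probes whose only gene symbol, updated through its Entrez identifier, was Uchl1, Stmn1, Stmn2, Stmn3, Stmn4, Cntn1, Ddc, Th, Gap43 or Tubb3. All 10 genes were found, on 11 of 23232 probes, out of 15099 genes with a singly named probe. The genes were selected on their log2 ratios of line against control, so these ratios, and the calls made on them, are given here as a description and support nothing.

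RNA was compared on 14 two-colour arrays, and every line derived from MIN6 cells at passage 24 that were kept for 4 days in 5 mM glucose. Sir2OE2 (4 arrays) and Sir2OE1 (3 arrays) carried mouse Sirt1 in the pBabe retrovirus with neomycin resistance, grew under 280 micrograms per ml of the selection drug G418, and were set against pooled RNA of Neo1 and Neo2, which carried the pBabe-neo virus. Sir2KD2 (4 arrays) and Sir2KD1 (3 arrays) had received mU6pro vectors for different small interfering RNAs against Sirt1 together with a neomycin marker plasmid, grew under 400 micrograms per ml, and were set against the line mU6pro, which had the vector alone. Sirt1 is an NAD-dependent protein deacetylase, and the design asks what follows when it is raised or lowered. Nothing says that slides of a line came from separate cultures, so the spread behind each p-value is that of arrays, perhaps only a technical one, and does not hold that of the controls. The single Sirt1 probe was not called in any line, with log2 ratios of -0.33 ± 0.10 in Sir2OE2, 0.08 ± 0.12 in Sir2OE1, 0.13 ± 0.10 in Sir2KD2 and -0.10 ± 0.12 in Sir2KD1, so it did not check the labels or settle the direction of the ratios. The values are ratios and hold no level, so neither the beta-cell identity of the lines nor the abundance of any member could be checked, and fewer expressing cells and less RNA per cell cannot be told apart.

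Beta cells and neurons share a set of genes that most other cells keep silent, among them genes for vesicle release, amine synthesis and the neuronal cytoskeleton. Uchl1 encodes a ubiquitin C-terminal hydrolase that is abundant in neurons and is also used as a neuroendocrine marker. Stathmins bind tubulin dimers and destabilise microtubules: Stmn1 is cytosolic and widely expressed, while Stmn2, Stmn3 and Stmn4 are membrane-anchored and mainly neuronal. Th, tyrosine hydroxylase, makes L-DOPA in the rate-limiting step of catecholamine synthesis, and Ddc decarboxylates L-DOPA to dopamine.

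Promoter sequences were available for Uchl1, Stmn3, Th, Tubb3, Ddc and Cntn1 from RefSeq on mouse assembly GRCm38.p6, as windows of 300 bases that run from 250 bases before to 50 bases after a start site. Those of Uchl1, the member furthest from its control, and of Th and Ddc, which act in consecutive steps, are shown in the direction of transcription. Uchl1 is at chr5:66675871-66676170 on the plus strand, Th at chr7:142899946-142900245 on the minus strand, and the Ddc starts at chr11:11898095-11898394 (upstream) and chr11:11890359-11890658 (downstream) on the minus strand. Capitals mark matches on either strand to the cyclic AMP response element TGACGTCA, the TATA box TATAAA, the GC box GGGCGG and the RE1 half-elements TTCAGCACC and GGACAGC.
Uchl1 promoter: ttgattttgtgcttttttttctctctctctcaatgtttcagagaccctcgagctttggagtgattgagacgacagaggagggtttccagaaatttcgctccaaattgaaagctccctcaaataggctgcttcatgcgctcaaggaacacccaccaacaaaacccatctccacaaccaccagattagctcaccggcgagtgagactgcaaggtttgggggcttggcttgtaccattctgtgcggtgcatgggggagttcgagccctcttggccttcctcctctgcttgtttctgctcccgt
Th promoter: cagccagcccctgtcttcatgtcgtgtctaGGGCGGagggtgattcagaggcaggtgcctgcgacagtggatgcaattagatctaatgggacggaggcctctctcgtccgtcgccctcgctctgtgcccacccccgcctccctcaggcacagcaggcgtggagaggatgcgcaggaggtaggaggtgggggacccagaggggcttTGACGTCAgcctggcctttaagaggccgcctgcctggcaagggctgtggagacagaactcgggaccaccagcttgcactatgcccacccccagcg
Ddc upstream promoter: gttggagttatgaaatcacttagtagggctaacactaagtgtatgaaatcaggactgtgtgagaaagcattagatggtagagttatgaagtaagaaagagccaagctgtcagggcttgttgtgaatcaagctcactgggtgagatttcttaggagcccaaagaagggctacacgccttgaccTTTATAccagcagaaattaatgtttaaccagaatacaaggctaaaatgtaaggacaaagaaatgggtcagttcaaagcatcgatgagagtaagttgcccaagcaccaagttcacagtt
Ddc downstream promoter: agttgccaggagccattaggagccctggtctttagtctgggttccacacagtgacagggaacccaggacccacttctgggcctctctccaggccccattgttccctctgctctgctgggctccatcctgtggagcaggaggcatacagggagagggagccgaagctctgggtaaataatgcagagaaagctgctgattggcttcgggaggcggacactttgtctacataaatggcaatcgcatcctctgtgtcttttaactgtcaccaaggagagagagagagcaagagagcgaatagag

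The Th window held the cyclic AMP response element, first base 45 bases before the start, and a GC box 220 bases before it. The first of these words was present in 1.79% of 32851 promoter windows and the GC box in 35.7%. The upstream Ddc window held a reversed TATA box 68 bases before the start, a word found in 13.6% of windows. The Uchl1 and downstream Ddc windows held none of these words. Among the other windows, Tubb3 had 2 GC boxes and a reversed right RE1 half-element (present in 6.56% of windows). In 1 Cntn1 window there was a reversed TATA box, 181 bases before the start. The left RE1 half-element, in 0.371% of windows, was in none of the members' windows.

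Signs below are those of channel 2 over channel 1, with arrays that had the line in channel 1 turned, so that plus would mean more RNA in the line if channel 2 was on top of the deposited ratio. Neither the channel on top nor the turn is stated by the submitters, and both are assumptions. Arrays of a line with opposite channels had a mean r of -0.281 over 12 pairs as deposited, to which the centring contributes. All signs of the report turn together if it was channel 1, and comparisons of side between overexpression and knockdown arrays also need the same channel on top in both. The deposited log2 ratios were centred per probe on 6 of the 7 arrays of a kind, and undoing this gave whole percent ratios of the channels. For Uchl1 these percents were 873 and 1119 on the Sir2OE2 arrays with the line in channel 2, against 13 and 11 on those with the line in channel 1. In Sir2OE1 they were 506 and 518 with the line in channel 2, against 16 with it in channel 1. In Sir2KD2 they were 310 and 366 with the line in channel 2, against 28 and 27 with it in channel 1, and in Sir2KD1 237 against 43 and 39. The Uchl1 ratio was thus above 100% on every array with the line in channel 2 and below 100% on every array with it in channel 1. Uchl1 was selected on these ratios, so this alternation is a description and does not bear on whether the turn is right. Stmn2 also moved with the channels, around a mean log2 channel ratio of -0.86 over the 7 overexpression arrays, a mean that also holds the ratios of the lines. Its percents were 331 and 245 in Sir2OE2 with the line in channel 2, against 11 and 12 in channel 1. In Sir2OE1 they were 62 and 72 against 32, all below 100%. Rounding to whole percents moves the smallest of these, 11%, by at most 0.066 on the log2 scale.

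**Figure D1:**
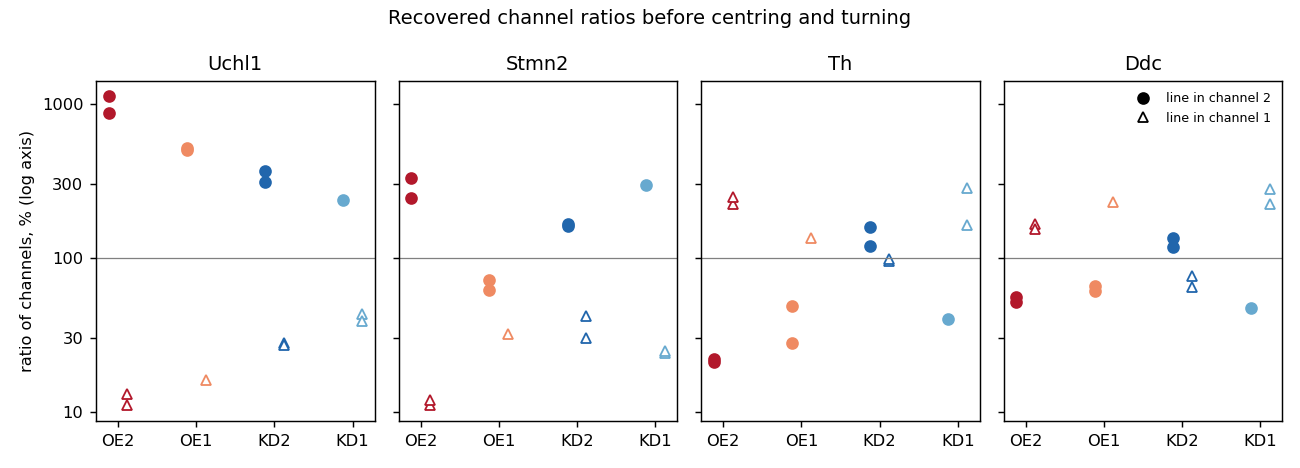
Ratio of the channels in percent (log axis) on each array, before centring was applied and before any array was turned, for Uchl1, Stmn2, Th and Ddc in the 4 lines; filled circles are arrays with the line in channel 2, open triangles those with it in channel 1. Uchl1 lies between 237 and 1119% on all circles and between 11 and 43% on all triangles.

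Uchl1 stood furthest from control of all members in both overexpressing lines and in Sir2KD2. Its turned log2 ratios were 3.10, 3.45, 2.97 and 3.21 in Sir2OE2 and 2.31, 2.34 and 2.67 in Sir2OE1, in both cases against the Neo pool. They were 1.69, 1.93, 1.78 and 1.83 in Sir2KD2 and 1.30, 1.16 and 1.30 in Sir2KD1, against mU6pro. All 14 arrays lay on the plus side, and the arrays of the 4 lines did not overlap. With the channel offset fitted, the log2 ratio was 3.18 ± 0.11 in Sir2OE2 (SE, n = 4) and 2.45 ± 0.13 in Sir2OE1 (SE, n = 3), folds of 9.09 and 5.45. It was 1.81 ± 0.11 in Sir2KD2 (SE, n = 4) and 1.26 ± 0.13 in Sir2KD1 (SE, n = 3), folds of 3.50 and 2.39. The order was therefore Sir2OE2, Sir2OE1, Sir2KD2 and Sir2KD1. The neighbours within a kind did not pass the limma test of their difference: Sir2OE2 minus Sir2OE1 was 0.74 with a 95% interval of 0.35 to 1.12 and adjusted p = 0.161, and Sir2KD2 minus Sir2KD1 was 0.55 with an interval of 0.16 to 0.93 and adjusted p = 0.226. Lines of different kinds have different controls, and their ratios were not tested against each other. How many of all probes have lines that do not overlap was not counted.

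**Figure D2:**
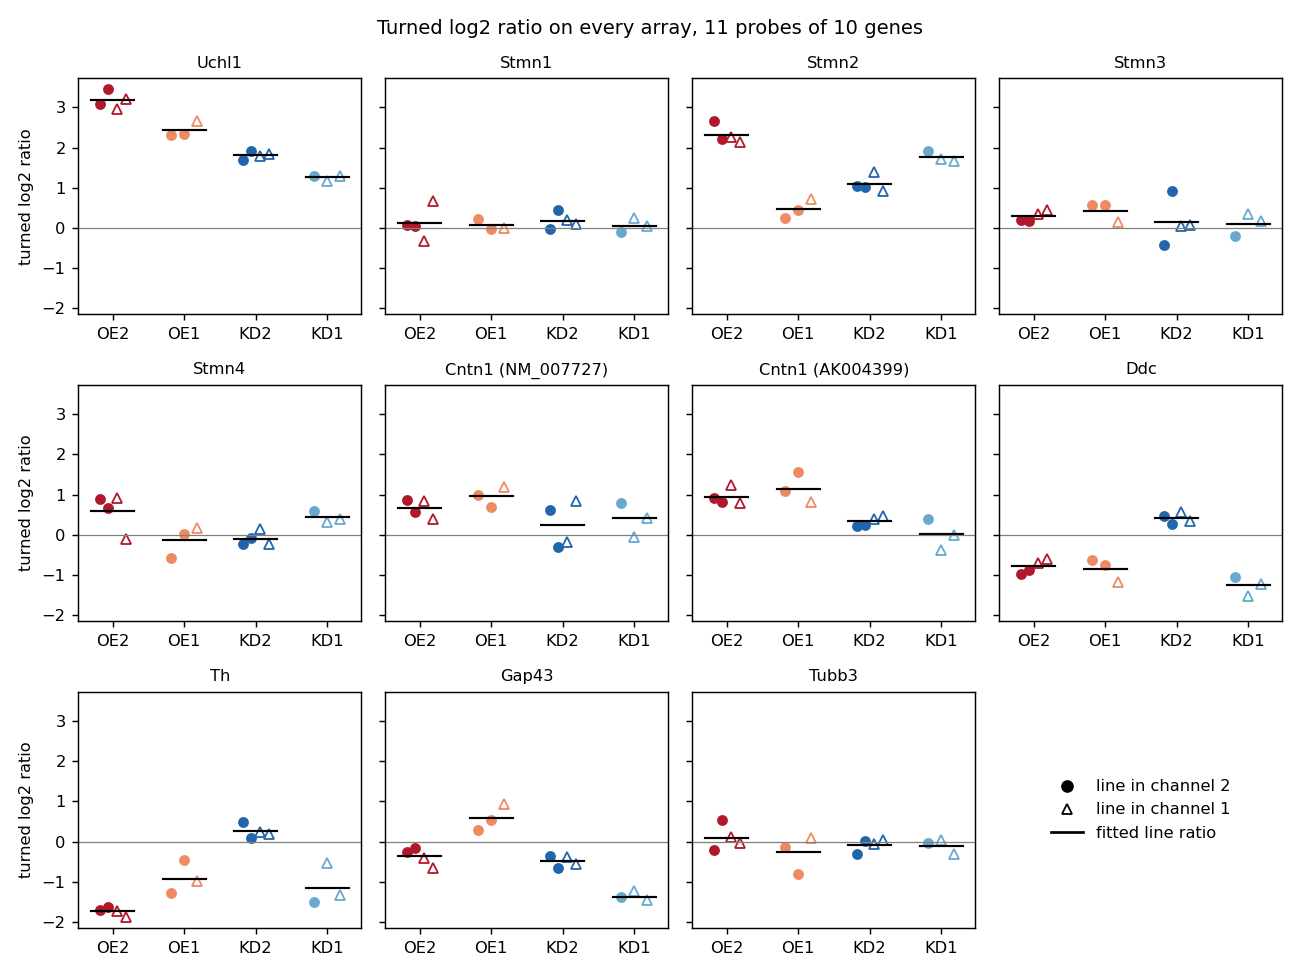
Turned log2 ratio (vertical axis) of the 11 probes on every array of Sir2OE2, Sir2OE1, Sir2KD2 and Sir2KD1; filled circles have the line in channel 2, open triangles in channel 1, and black bars are the fitted line ratios. With the deposited centring kept, Uchl1 and Stmn2 are above 0 on all 14 arrays, while Ddc and Th are above 0 in Sir2KD2 and below 0 in the other lines.

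Stmn2, the stathmin of growing axons also known as SCG10, was the one stathmin with a called ratio, and it was on the plus side of control on all 14 arrays. Its turned log2 ratios were 2.65, 2.22, 2.26 and 2.13 in Sir2OE2 and 0.24, 0.45 and 0.72 in Sir2OE1. They were 1.06, 1.02, 1.40 and 0.92 in Sir2KD2 and 1.91, 1.72 and 1.67 in Sir2KD1. Sir2OE2 was the highest of the lines, Sir2OE1 the lowest, and no 2 lines overlapped. Lines of different kinds have different controls and were not tested against each other. The share of all probes whose lines do not overlap was not counted. The fitted log2 ratio was 2.32 ± 0.13 in Sir2OE2, a fold of 4.98, and 0.47 ± 0.16 in Sir2OE1, a fold of 1.38, which was not called. It was 1.10 ± 0.13 in Sir2KD2 and 1.77 ± 0.16 in Sir2KD1, folds of 2.14 and 3.40. The overexpressing lines differed, with Sir2OE2 minus Sir2OE1 at 1.85 (95% interval 1.40 to 2.30, limma adjusted p = 0.00601). For the knockdown lines, Sir2KD2 minus Sir2KD1 was -0.67 (interval -1.12 to -0.22) and did not pass, with limma adjusted p = 0.204.

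The remaining stathmins were not called in any line. Stmn1, the widely expressed member, had fitted log2 ratios between 0.06 and 0.19 in the 4 lines, with single arrays from -0.32 to 0.68. Stmn3 lay between 0.10 and 0.42 in the 4 lines, with single arrays from -0.43 to 0.93, both of these extremes in Sir2KD2. Stmn4 was at 0.59 ± 0.18 in Sir2OE2 and -0.13 ± 0.22 in Sir2OE1, and at -0.10 ± 0.18 in Sir2KD2 and 0.43 ± 0.22 in Sir2KD1. Over the 14 arrays with the channel offset removed, Stmn4 and Stmn2 had Pearson r = 0.811, a description over arrays that share control RNA and that form 4 lines in effect. Without Sir2OE2 slide 4, where Stmn4 was at -0.11 against 0.66 to 0.92 on the other slides of that line, the Sir2OE2 ratio of Stmn4 was 0.87 and was called. For Stmn1 and Stmn3 the differences between lines of a kind had 95% intervals within -0.48 to 0.66 and -0.79 to 0.72. The Stmn4 difference was 0.72 for Sir2OE2 minus Sir2OE1 (interval 0.09 to 1.35, limma adjusted p = 0.559). It was -0.54 for Sir2KD2 minus Sir2KD1 (interval -1.16 to 0.09, limma adjusted p = 0.510), and neither passed.

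Tubb3, the beta-tubulin isotype typical of neurons and a partner of stathmins as tubulin subunit, was not called in any line either. Its fitted log2 ratios were 0.10 ± 0.16 in Sir2OE2, -0.26 ± 0.19 in Sir2OE1, -0.08 ± 0.16 in Sir2KD2 and -0.10 ± 0.19 in Sir2KD1. The differences between lines had 95% intervals of -0.20 to 0.92 for the overexpressing lines and -0.53 to 0.59 for the knockdown lines. Single arrays ran from -0.80 to 0.53, with 6 of them above 0 and 8 below.

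Th was on the minus side in 3 lines and on the plus side in Sir2KD2. Its turned log2 ratios were -1.69, -1.63, -1.72 and -1.88 in Sir2OE2 and -1.28, -0.47 and -0.99 in Sir2OE1. They were 0.50, 0.09, 0.23 and 0.20 in Sir2KD2 and -1.49, -0.54 and -1.33 in Sir2KD1. The Sir2OE2 arrays were the lowest and hardly varied, while those of Sir2OE1 and Sir2KD1 overlapped and spread more widely. The fitted log2 ratio was -1.73 ± 0.17 in Sir2OE2 and -0.94 ± 0.20 in Sir2OE1, where it was not called. It was 0.26 ± 0.17 in Sir2KD2, not called, and -1.15 ± 0.20 in Sir2KD1, called. Sir2KD2 minus Sir2KD1 was 1.41 (95% interval 0.83 to 1.98), with limma adjusted p = 0.0417. This difference lost its call when any 1 array was left out, apart from Sir2OE1 slides 1 and 2 and Sir2KD1 slide 2, with adjusted p up to 0.142 without Sir2KD1 slide 1. For the overexpressing lines, Sir2OE2 minus Sir2OE1 was -0.79 (interval -1.37 to -0.22) and did not pass, with limma adjusted p = 0.385.

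Ddc, the next enzyme of the pathway and also the last step of serotonin synthesis, was on the same side as Th in every line. Its turned log2 ratios were -0.98, -0.87, -0.71 and -0.60 in Sir2OE2 and -0.63, -0.75 and -1.17 in Sir2OE1. They were 0.47, 0.28, 0.57 and 0.35 in Sir2KD2 and -1.04, -1.53 and -1.21 in Sir2KD1. The overexpressing lines overlapped, and the knockdown lines lay on opposite sides of 0 on all their arrays. The fitted log2 ratio was -0.79 ± 0.13 in Sir2OE2, -0.85 ± 0.15 in Sir2OE1, 0.42 ± 0.13 in Sir2KD2 and -1.25 ± 0.15 in Sir2KD1, and the Sir2KD2 ratio was the one not called. The knockdown lines differed by 1.66 for Sir2KD2 minus Sir2KD1 (95% interval 1.22 to 2.10, limma adjusted p = 0.00431). For Sir2OE2 minus Sir2OE1 the difference was 0.07 with an interval of -0.37 to 0.50 and limma adjusted p = 0.999. Ddc and Th had Pearson r = 0.744 over the 14 arrays, again a description. Ddc was not called in Sir2OE1 without any 1 of its own slides, with ratios from -0.96 to -0.55, nor in Sir2OE2 without its slide 1 or slide 2, at -0.70 and -0.75. Th lost its Sir2KD1 call without slide 1 or slide 3 of that line, at -0.90 and -1.02, and gained one in Sir2OE1, at -0.94, without Sir2KD1 slide 2.

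**Figure D3:**
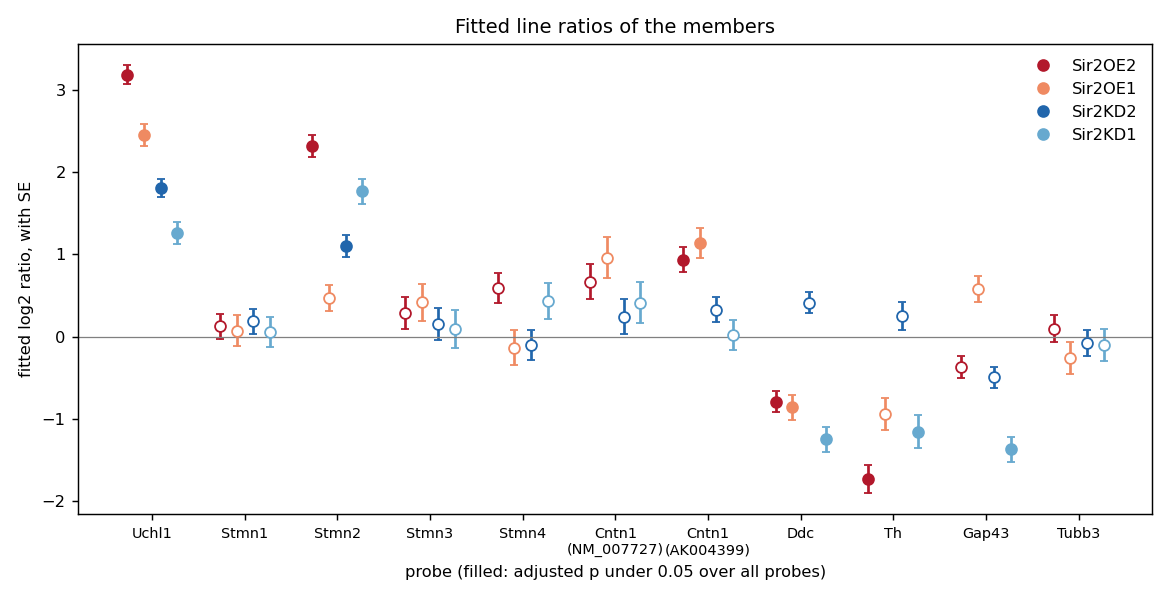
Fitted log2 ratio of each line against its control (vertical axis, bars are SE) for the 11 probes, in the order Sir2OE2, Sir2OE1, Sir2KD2 and Sir2KD1; filled points had limma adjusted p under 0.05 over all tested probes. Uchl1 and Stmn2 are highest, at 3.18 and 2.32 in Sir2OE2, and Th in Sir2OE2 is lowest at -1.73.

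Other genes of amine synthesis and handling had 14 of 20 members measured, on 17 probes, and 3 of these genes were called in at least 1 line, all on the minus side there. Over all 15099 named genes, 8.08% were called in at least 1 line. By line, 2 of the 17 probes were called in Sir2OE2, 1 in Sir2OE1, 0 in Sir2KD2 and 1 in Sir2KD1. Gch1, Pcbd1 and Spr all serve tetrahydrobiopterin, the cofactor of tyrosine hydroxylase: Gch1 and Spr act in its synthesis and Pcbd1 in its recycling. Pts and Qdpr were also on the list and were not among the called genes. Uncalled probes of the list reached 0.37 in Sir2OE2, 0.45 in Sir2OE1, 0.90 in Sir2KD2 and 1.18 in Sir2KD1 on the plus side. Whether the cofactor genes moved with Th was not tested. Gch1 was at -0.27 in Sir2OE2 and -0.99 ± 0.16 in Sir2OE1, called in Sir2OE1, and on the other side at 0.39 in Sir2KD2 and 0.03 in Sir2KD1. Pcbd1 was called at -0.58 ± 0.11 in Sir2OE2 and -0.99 ± 0.13 in Sir2KD1, with -0.14 in Sir2OE1 and -0.21 in Sir2KD2. Spr was called in Sir2OE2 at -0.57 ± 0.13, with -0.31 in Sir2OE1, -0.01 in Sir2KD2 and -0.59 in Sir2KD1. The list's median ratio was -0.11 in Sir2OE2, -0.14 in Sir2OE1, 0.16 in Sir2KD2 and -0.16 in Sir2KD1, beside medians between -0.004 and 0.02 over all 23230 tested probes.

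Gap43, a membrane-bound protein of growth cones, was at its lowest in Sir2KD1. Its turned log2 ratios were -0.26, -0.15, -0.40 and -0.65 in Sir2OE2 and 0.29, 0.53 and 0.92 in Sir2OE1. They were -0.36, -0.67, -0.38 and -0.56 in Sir2KD2 and -1.38, -1.24 and -1.46 in Sir2KD1. The overexpressing lines lay on opposite sides of 0 on all their arrays, and the knockdown lines did not overlap. The fitted log2 ratio was -0.37 ± 0.13 in Sir2OE2 and 0.58 ± 0.15 in Sir2OE1, neither of them called. It was -0.49 ± 0.13 in Sir2KD2, not called, and -1.37 ± 0.15 in Sir2KD1, called, a fold of 2.58. The difference between lines was -0.95 for Sir2OE2 minus Sir2OE1 (95% interval -1.39 to -0.50, limma adjusted p = 0.105) and 0.88 for Sir2KD2 minus Sir2KD1 (interval 0.43 to 1.32, limma adjusted p = 0.0952), neither past the threshold.

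Of the axonal and neuronal cytoskeleton list, 25 of 27 genes were measured on 28 probes, and 4 genes were called in at least 1 line, beside the 8.08% of all named genes. By line, 2 of the 28 probes were called in Sir2OE2, 2 in Sir2OE1, 1 in Sir2KD2 and 2 in Sir2KD1. Basp1, a membrane-bound growth cone protein of the same class as Gap43, had a probe at 0.04 in Sir2OE2 and 1.13 ± 0.19 in Sir2OE1, and at -1.28 ± 0.16 in Sir2KD2 and -1.75 ± 0.19 in Sir2KD1, the last 3 called. Its other probe was not called and lay between -0.29 and 0.32, so the Basp1 probes disagreed. Dpysl4, which belongs to the collapsin response mediators, was called on the plus side at 0.75 ± 0.12 in Sir2OE2 and 1.02 ± 0.14 in Sir2KD1, with -0.25 in Sir2OE1 and 0.18 in Sir2KD2. Marcks was called at 0.47 in Sir2OE2, with 0.50 in Sir2OE1, 0.09 in Sir2KD2 and 0.01 in Sir2KD1. The beta-tubulin Tubb4a was called at -0.82 in Sir2OE1, with -0.24 in Sir2OE2, -0.58 in Sir2KD2 and -0.52 in Sir2KD1.

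Cntn1, a cell adhesion molecule of the immunoglobulin superfamily anchored by a lipid, was read by 2 probes. On the probe annotated to AK004399 the turned log2 ratios were 0.92, 0.81, 1.24 and 0.78 in Sir2OE2 and 1.10, 1.57 and 0.81 in Sir2OE1. They were 0.23, 0.24, 0.38 and 0.47 in Sir2KD2, and in Sir2KD1 they ran from -0.37 to 0.38. All arrays of the overexpressing lines were above all arrays of the knockdown lines on this probe. The kinds have different controls, this comparison needs the same channel on top in both, and it was not tested. How many of all probes separate the kinds in this way was not counted. On the probe annotated to NM_007727 the turned log2 ratios were 0.87, 0.57, 0.84 and 0.40 in Sir2OE2 and 0.99, 0.68 and 1.18 in Sir2OE1. They were 0.62, -0.31, -0.17 and 0.85 in Sir2KD2 and 0.80, -0.05 and 0.42 in Sir2KD1, so here the kinds overlapped. The AK004399 probe was called in Sir2OE2 at 0.94 ± 0.15 and in Sir2OE1 at 1.14 ± 0.18, folds of 1.92 and 2.20, and not in Sir2KD2 at 0.33 ± 0.15 or in Sir2KD1 at 0.02 ± 0.18. The NM_007727 probe was at 0.67 ± 0.21, 0.96 ± 0.25, 0.25 ± 0.21 and 0.41 ± 0.25 in the same order of lines, with no call. The AK004399 call in Sir2OE1 was lost without any 1 slide of that line, at ratios from 0.95 to 1.41, and the one in Sir2OE2 without its slide 3, at 0.79. Neither probe passed in a difference between lines of a kind, and the 4 intervals lay within -1.02 to 0.83.

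Among other neuronal adhesion genes, 16 of 20 were measured on 20 probes, and 4 were called in at least 1 line, beside the same 8.08%. By line, 2 of the 20 probes were called in Sir2OE2, 0 in Sir2OE1, 0 in Sir2KD2 and 3 in Sir2KD1. Cntnap2, a membrane partner of contactins at the axon, was at 1.21 ± 0.16 in Sir2OE2, called, and at 0.54 in Sir2OE1, -0.04 in Sir2KD2 and 0.47 in Sir2KD1. The related Cntnap1 was called at 0.63 ± 0.10 in Sir2OE2 and 0.61 ± 0.11 in Sir2KD1, with 0.09 in Sir2OE1 and -0.26 in Sir2KD2. Nrxn3 was called in Sir2KD1 at 1.10 on 1 probe and not on the other, at 0.25. Ptprz1, a receptor phosphatase that binds contactins, was called in Sir2KD1 at -0.94, with -0.28 in Sir2OE2, 0.54 in Sir2OE1 and 0.10 in Sir2KD2.

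Counted over the 11 member probes, 3 were called plus (Uchl1, Stmn2 and the AK004399 probe of Cntn1) and 2 minus (Th and Ddc) in Sir2OE2, where 2.81% of all tested probes were called (1.43% plus, 1.38% minus). In Sir2OE1, Uchl1 and the AK004399 probe were called plus and Ddc minus, where 1.06% of all probes were called (0.469% plus, 0.594% minus). In Sir2KD2, Uchl1 and Stmn2 were called plus and 0 minus, beside 1.34% of all probes (0.603% plus, 0.740% minus). In Sir2KD1, Uchl1 and Stmn2 were called plus and Ddc, Th and Gap43 minus, beside 3.59% of all probes (1.60% plus, 1.98% minus). Since these contrasts chose the members, nothing is read from the counts. Medians over the 11 probes were 0.29 in Sir2OE2, 0.42 in Sir2OE1, 0.25 in Sir2KD2 and 0.06 in Sir2KD1. For the differences between lines, 1 of 11 member probes passed for Sir2OE2 minus Sir2OE1, where 0.323% of all probes did (0.211% plus, 0.112% minus), and 2 of 11 for Sir2KD2 minus Sir2KD1, where 0.689% did (0.422% plus, 0.267% minus). All 3 were on the plus side. The shared control RNA cancels in these differences, but they are made of the same arrays whose line ratios were in view when the members were picked.

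**Figure D4:**
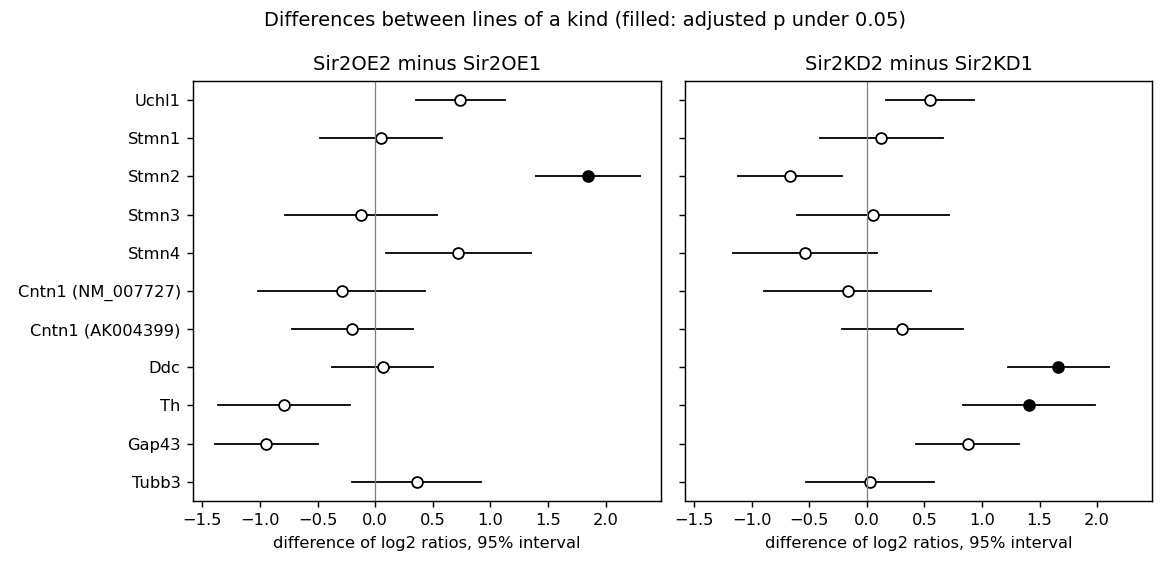
Difference of the log2 ratios of 2 lines of a kind (horizontal axis, point with 95% interval) for the 11 probes, Sir2OE2 minus Sir2OE1 at left and Sir2KD2 minus Sir2KD1 at right; filled points had limma adjusted p under 0.05. Stmn2 at 1.85 on the left, and Ddc at 1.66 and Th at 1.41 on the right, are the filled points.

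Ubiquitin hydrolases and ubiquitin genes other than Uchl1 had 6 of 12 members measured, on 6 probes. Of these genes, 1 was called in at least 1 line, beside 8.08% of all named genes. It was Atxn3, a deubiquitinating enzyme, at 0.63 ± 0.14 in Sir2KD1, where 3.59% of all probes were called. The ratios of the 6 genes lay between -0.11 and 0.13 in Sir2OE2 and between -0.17 and 0.46 in Sir2OE1. They lay between -0.13 and 0.13 in Sir2KD2 and between -0.02 and 0.63 in Sir2KD1. Of genes for neuronal and neuroendocrine identity, 22 of 25 were measured on 27 probes, and 3 were called in at least 1 line, again beside 8.08% of all named genes. By line, 1 of the 27 probes was called in Sir2OE2, 1 in Sir2OE1, 0 in Sir2KD2 and 2 in Sir2KD1. Neurod1, a transcription factor of neurons and beta cells, was called at -0.50 ± 0.09 in Sir2OE2 and -0.47 ± 0.11 in Sir2KD1, with -0.04 in Sir2OE1 and -0.14 in Sir2KD2. Elavl4, a neuronal RNA-binding protein, was called at 0.63 in Sir2OE1, with 0.24 in Sir2OE2, -0.01 in Sir2KD2 and -0.25 in Sir2KD1. The zinc-finger factor Myt1 was called at -0.63 in Sir2KD1, and was at -0.54 in Sir2OE2, 0.65 in Sir2OE1 and -0.45 in Sir2KD2. The list's medians were 0.12 in Sir2OE2, -0.02 in Sir2OE1, -0.01 in Sir2KD2 and 0.04 in Sir2KD1.

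Markers of other cells were read on the same arrays. Of glial and Schwann cell markers, 8 of 10 were measured on 11 probes. Among them 1 gene was called in at least 1 line, beside 8.08% of all named genes. This was Olig2, called in Sir2KD1 at -0.84, with -0.49 in Sir2OE2, -0.53 in Sir2OE1 and 0.24 in Sir2KD2. All 10 fibroblast and mesenchymal markers and 8 of 10 markers of other islet endocrine cells were measured. By limma adjusted over all probes, 0 of these were called in any line, beside the same 8.08% of all named genes. At an unadjusted p under 0.05 there were 0 to 1 of 13 fibroblast probes and 0 to 2 of 8 islet probes per line. The share of all probes at this unadjusted level was not counted, and 8.08% is not its equivalent. Fibroblast marker ratios ran from -0.34 to 0.35 in Sir2OE2, -0.65 to 0.52 in Sir2OE1, -0.25 to 0.38 in Sir2KD2 and -0.55 to 0.82 in Sir2KD1. Of 7 measured beta-cell markers, 3 were called in at least 1 line and 4 in none, beside the same 8.08%. In each line 2 were called, where 1.06% to 3.59% of all probes were. The list's median ratio was -0.35 in Sir2OE2, -0.21 in Sir2OE1, 0.02 in Sir2KD2 and 0.05 in Sir2KD1. Slc2a2 was called on the minus side in all 4 lines, from -2.08 to -0.89. Pcsk1 was called on the plus side in Sir2OE2, Sir2OE1 and Sir2KD2 at 0.76 to 0.78, and Pdx1 on the minus side in Sir2KD1 at -0.77. Pcsk1 was at 0.44 in Sir2KD1, and Pdx1 at -0.12 in Sir2OE2, 0.12 in Sir2OE1 and -0.50 in Sir2KD2. The part of these markers in the members' ratios was not tested.

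Genes whose ratios followed Uchl1 most closely over the 14 arrays, with the channel offset removed, were Pgrmc1 (Pearson r = 0.967), Mas1 (0.952), Sema3c (0.949), Fv1 (0.945) and Dusp4 (0.942). This likeness compares the order and spacing of arrays and not the side of 0. Dusp4, a phosphatase of MAP kinases, was at 0.39 in Sir2OE2 and -0.05 in Sir2OE1, and at -0.50 in Sir2KD2 and -1.57 in Sir2KD1, while Uchl1 was on the plus side throughout. Those most like Stmn2 were Pbk (0.943), Clu (0.941), a Gapdh probe (0.933, with 231 other probes of that name), Ldha (0.930) and Crhr1 (0.928). Ldha, the lactate dehydrogenase subunit that is scarce in mature beta cells, was at 0.83 in Sir2OE2 and -0.50 in Sir2OE1, and at 0.07 in Sir2KD2 and 0.73 in Sir2KD1. These are descriptions over arrays that share control RNA.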

How the data were processed

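Values on the 14 two-colour arrays were deposited as log2 ratios of both channels. Complete probes summed to 0 over 6 of the 7 arrays of a kind (largest deviation 5.6e-08), with Sir2OE1 slide 2 and Sir2KD1 slide 2 outside the sums. With this centring undone, 100% of complete probes had whole percents (relative tolerance 1e-05). For software, background correction, normalization and channel order, nothing is given in the sources used here. Without intensities signal over background is unknown, so its part in the precision, beside the number of arrays, could not be checked. Median deposited values per array ran from -0.035 to 0.017.

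The sign was turned on arrays whose channel 1 held the line. Probes with values on at least 2 arrays of each line (23230) entered a limma fit (version 3.58.1, R 4.3.3; lmFit, eBayes) with a coefficient per line, a channel offset per kind and Benjamini-Hochberg adjustment over all probes at 0.05. The fit was tested on simulated data. No member probe shared the ratios repeated on 329 overexpression and 173 knockdown probes. Symbols came from a platform annotation of 2007, updated through Entrez identifiers to RefSeq names for 16205 of 16885 singly named probes.

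All probes of the 10 members are named. Also named are the 5 genes most like Uchl1 and Stmn2 by Pearson r, and up to 6 called genes with the largest ratio per further list. Members and lists were chosen with earlier results of these data known. Alternatives covered channel offset, turning, array scaling and weights, filtering, the arrays fitted, a slide block, and each array left out.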

Additional observations from a re-analysis of the deposited data

Results flagged for a closer look

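In all, 3 line differences among the members passed the limma test of the difference itself, of 22 tested. Of all probes, 0.323% passed for Sir2OE2 minus Sir2OE1 and 0.689% for Sir2KD2 minus Sir2KD1. The members were picked with these arrays in view. Stmn2 differed by 1.85 on the log2 scale for Sir2OE2 minus Sir2OE1, with all 4 Sir2OE2 arrays above all 3 Sir2OE1 arrays (adjusted p = 0.00601). Ddc differed by 1.66 for Sir2KD2 minus Sir2KD1, with 4 of 4 Sir2KD2 arrays on the plus side and 3 of 3 Sir2KD1 arrays on the minus side (adjusted p = 0.00431). Th differed by 1.41 in the same comparison, with the arrays on the same sides as for Ddc (adjusted p = 0.0417), and this call was lost under most single-array omissions. None of these 3 differences was called with the 7 arrays of a kind alone. No member had an array that stood apart by Dixon's test in the 22 sets of 4 arrays looked at.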

How the results depend on the processing

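With any 1 array left out, the number of called member probes ran from 4 to 6 in Sir2OE2, from 1 to 4 in Sir2OE1 and from 4 to 5 in Sir2KD1, was 2 in Sir2KD2, and was 1 for Sir2OE2 minus Sir2OE1 and 1 to 2 for Sir2KD2 minus Sir2KD1. With no channel offset, 6 were called in Sir2OE1, 3 in Sir2KD2, and 3 in each line difference. A single offset over both kinds gave 2 for Sir2OE2 minus Sir2OE1. Array weights gave 8 in Sir2OE2. The share of all probes called was taken in the main fit only, so none stands beside the counts under other settings. Whether all probes gained or lost calls alike was not tested. Array weights and scaling to one median absolute deviation each gave 1 for Sir2KD2 minus Sir2KD1. With the 7 arrays of a kind alone, 1 was called in Sir2OE1 and 0 in either line difference, with the same estimates (adjusted p = 0.0579 for Stmn2, 0.124 for Ddc and 0.272 for Th). That limma fit has fewer arrays, its unadjusted p-values were not counted, and why the calls were lost was not tested. In the main limma fit on all arrays, 5 of the 11 selected probes had an unadjusted p under 0.05 in each line difference. The share of all probes at that level was not counted, so nothing is read from this. Slide numbers were not described as pairing arrays. Residuals of same-numbered arrays of different lines correlated between -0.389 and 0.237 (mean -0.066). For arrays of different lines with different numbers, the range was -0.538 to 0.498 (mean 0.023). With slide number as a replicate block, 1 probe passed for Sir2KD2 minus Sir2KD1, and no other count changed. Th, at 1.40, lost its call in that difference (limma adjusted p = 0.0506).

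With no array turned, 0 members were called in any line or line difference, by limma at the same threshold, and 0 had an unadjusted p under 0.05; by construction, the channel offset of that fit takes up what alternates with the channel. Called ratios then changed side for Uchl1 (-0.31) and Ddc (0.21) in Sir2OE1, Cntn1 AK004399 (-0.0719) and Th (0.0714) in Sir2OE2, Stmn2 (-0.0600) in Sir2KD2, and Stmn2 (-0.0348), Ddc (0.49), Th (0.0161) and Gap43 (0.16) in Sir2KD1. For Sir2OE2 minus Sir2OE1 the sign changed for Stmn1 (-0.0835), Cntn1 NM_007727 (0.16), Ddc (-0.35) and Gap43 (0.21), and for Sir2KD2 minus Sir2KD1 for Uchl1 (-0.14), Cntn1 AK004399 (-0.42), Ddc (-0.53), Gap43 (-0.18) and Tubb3 (-0.12). With array weights it changed for Stmn1 (-0.0335) and Ddc (-0.0787) in Sir2OE2 minus Sir2OE1. The cause of this last change was not tested. With 1 array left out, uncalled differences near 0 crossed it: Stmn1 (-0.13 to 0.20) and Ddc (-0.23 to 0.17) for Sir2OE2 minus Sir2OE1, and Stmn3 (-0.22 to 0.24), Cntn1 NM_007727 (-0.50 to 0.15) and Tubb3 (-0.0821 to 0.119) for Sir2KD2 minus Sir2KD1.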
